A study of Danio rerio with 4 samples.

Results

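The 4 lens crystallin genes cryaa, crybb1, cryba4 and crygs1 were examined in hearts and surrounding tissue of wild-type zebrafish embryos at 48 hours post fertilization. The genes were chosen with earlier results of these data known, so the shares of all probe sets set beside them are descriptions. Their probe sets were taken by name: every probe set with 1 gene symbol, updated through its Entrez identifier, that is one of these 4 was kept. This gave 4 of 8793 named genes, with 1 probe set each among 15502 tested. The arrays compared 2 groups of sibling embryos, 2 arrays each and 4 arrays in all. SU5402 embryos, which received 10 μM of this inhibitor of fibroblast growth factor (FGF) receptors diluted from a 1 mM stock in DMSO, were set against embryos in 1% DMSO. Each glass vial held up to 20 embryos in 3 mL, and tissue was collected with a syringe, a procedure whose product the labels describe as heart together with what lies around it. The labels do not give the number of embryos behind an array, the clutch of each replicate, or when treatment began and how long it lasted. P-values therefore reflect array-to-array spread alone, part or all of which may be technical, and the number of arrays limits the precision. In a bulk sample, fewer cells of a type and less RNA per cell cannot be told apart.

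Crystallins are the soluble proteins that fill the elongated fibre cells of the vertebrate lens and give it transparency and refractive power. Alpha crystallins, of which cryaa encodes alpha A, belong to the small heat shock proteins and act as chaperones that keep damaged proteins from aggregating. Beta and gamma crystallins form a separate superfamily built from Greek key folds. Here crybb1 encodes the basic beta crystallin B1, cryba4 the acidic beta crystallin A4 and crygs1 a gamma S crystallin. In mammals, FGF signalling is known to drive lens epithelial cells to elongate and to accumulate beta and gamma crystallins. The lens is not part of the heart, so these transcripts also describe what the collected tissue held.

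The arrays held heart and non-heart transcripts. Array medians were 177.3 and 172.9 (SU5402) and 184.4 and 179.3 (DMSO) in intensity. The 17 Tag control probe sets match no zebrafish transcript, and the 95th percentile of their intensities, 136, serves here as the background level. Replicate arrays correlated at r = 0.928 (SU5402) and 0.964 (DMSO) across probe sets, which are not independent replicates. Arrays of different groups correlated at r = 0.908 to 0.94. The 2 SU5402 arrays were thus less alike than the closest SU5402 and DMSO arrays. Of 11 measured FGF feedback and target genes, 7 were lower after SU5402 at an unadjusted p under 0.05 in limma, beside 6.21% of all probe sets. The 4 lowest by p were the ETS factor genes etv5b at -3.90 (SE 0.32, log2), etv4 and etv5a (-2.25) and the phosphatase gene dusp6 (-1.81). On the SU5402 arrays etv5b lay at the background (132 and 143), and etv4 lay below it, at least 4.63-fold lower than in DMSO. Of 17 measured heart muscle genes, 10 lay above the Tag background on all arrays.

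All 4 crystallin probe sets had a higher mean after SU5402, and none passed the test over all probe sets. Each difference is the mean log2(intensity + 16) of the SU5402 arrays minus that of the DMSO arrays, a scale that shrinks the difference of dim probe sets, and was tested in limma with Benjamini-Hochberg adjustment over all 15502 probe sets. They were 0.71 for cryaa, 0.24 for crybb1, 0.47 for cryba4 and 1.81 for crygs1, with a median of 0.59 beside -0.01 over all probe sets. At an adjusted p under 0.05, 0 of the 4 were called, as were 0 of all probe sets (0.0%, lowest adjusted p 0.255). At an unadjusted p under 0.05, 1 of the 4 was called, crygs1, beside 13.0% of all probe sets in either direction, 6.74% as higher and 6.21% as lower. In 3 of the 4, cryaa, cryba4 and crygs1, both SU5402 arrays lay above both DMSO arrays, beside 22.2% of all probe sets. With 2 arrays in each group, the smallest exact two-sided permutation p is 0.333.

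**Figure D1:**
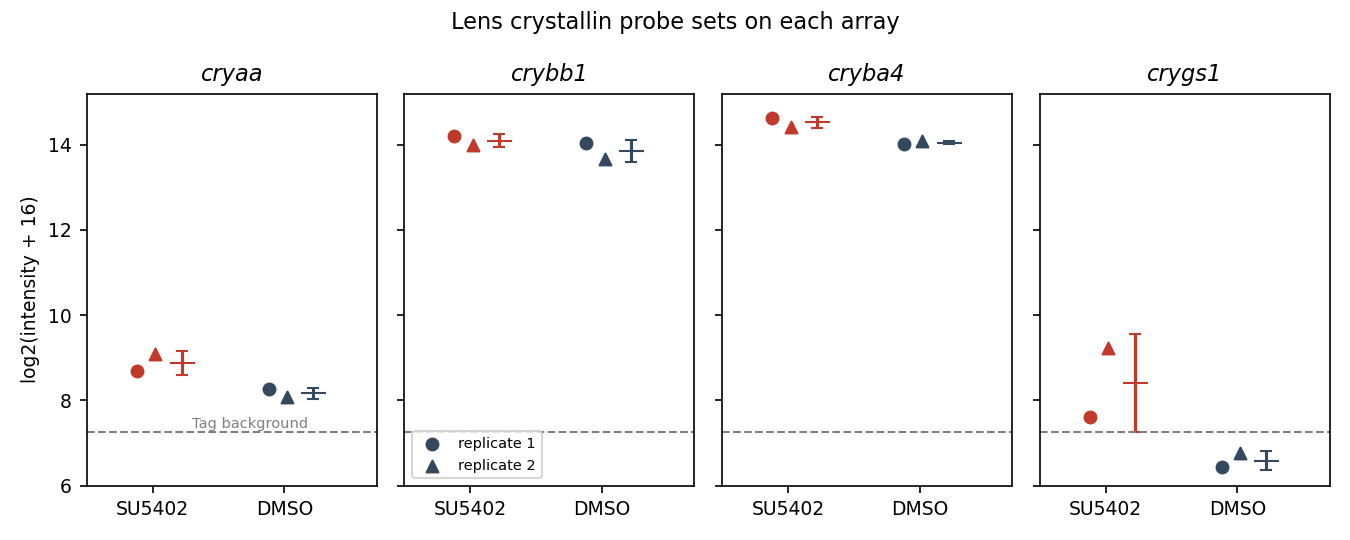
Log2(intensity + 16) of each crystallin probe set on the SU5402 and DMSO arrays, with the mean and SD of each pair as a bar (n = 2). The dashed line marks the Tag background at 7.25. The values of crybb1 and cryba4 lie between 13.67 and 14.62 in both groups, cryaa lies nearer the line, and crygs1 crosses it between the groups.

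The alpha A crystallin gene cryaa had intensities of 394 and 527 on the SU5402 arrays, against 292 and 254 on the DMSO arrays. Both SU5402 values were above both DMSO values, and all 4 lay above the Tag background. On the log2 scale it averaged 8.88 ± 0.29 (SU5402) and 8.17 ± 0.13 (DMSO; SD, n = 2 each). The difference of 0.71 (SE 0.32, 95% interval -0.08 to 1.51), or 1.64-fold, had an unadjusted p of 0.0703 and an adjusted p of 0.435 in limma. The nearest pair of SU5402 and DMSO arrays was 0.42 apart, about as far as the 2 SU5402 arrays from each other (0.41).

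The beta B1 gene crybb1 was at 18746 and 16215 in intensity on the SU5402 arrays, against 16766 and 13053 on the DMSO arrays. The groups overlapped, since SU5402 replicate 2 lay below DMSO replicate 1. Its means were 14.09 ± 0.15 (SU5402) and 13.85 ± 0.26 (DMSO; SD, n = 2 each). The difference of 0.24 (SE 0.32) had an adjusted p of 0.817 in limma, and its 95% interval, -0.55 to 1.02, ran from 0.684 to 2.03 as a ratio. A difference was therefore not detectable for crybb1 with these arrays, and a 2-fold one in the higher direction was not excluded by that interval.

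The beta A4 gene cryba4 was at 25184 and 21850 in intensity on the SU5402 arrays, against 16620 and 17351 on the DMSO arrays. Both SU5402 arrays lay above both DMSO arrays. The means were 14.52 ± 0.14 (SU5402) and 14.05 ± 0.04 (DMSO; SD, n = 2 each). The difference of 0.47 (SE 0.30, 95% interval -0.28 to 1.21), or 1.38-fold, had an unadjusted p of 0.175 and an adjusted p of 0.589 in limma.

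In the assembly GRCz12tu, crybb1 and cryba4 are neighbours with 0 other protein-coding genes between them. Their profiles over the arrays were not the same. The log2 value of cryba4 minus that of crybb1 was 0.43 and 0.43 on the SU5402 arrays, against -0.01 and 0.41 on the DMSO arrays. The 1 array that stood apart in this difference was DMSO replicate 1. Because each probe set has its own brightness, only the change of this difference between arrays can be read, not which gene had more transcript.

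The gamma S gene crygs1 had the largest difference of the 4 and the largest spread. Its intensities were 178 and 581 on the SU5402 arrays, against 70.2 and 92.4 on the DMSO arrays. Both SU5402 arrays were above the Tag background and both DMSO arrays below it, so crygs1 was not well above background in DMSO. The measured means were 8.41 ± 1.15 (SU5402) and 6.59 ± 0.23 (DMSO; SD, n = 2 each), a difference of 1.81 (SE 0.57, 95% interval 0.42 to 3.21) with an unadjusted p of 0.0191 and an adjusted p of 0.296 in limma. With the DMSO arrays held at the background, the mean of crygs1 was at least 2.24-fold higher on the SU5402 arrays. This bound is on the measured means and does not include the spread between arrays. It was 1.27-fold without SU5402 replicate 2 and 3.93-fold without SU5402 replicate 1 (computed after the data were seen).

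The size of the crygs1 difference rested on SU5402 replicate 2. The 2 SU5402 arrays were 1.63 apart, while SU5402 replicate 1 was 0.84 above the higher DMSO array. Without SU5402 replicate 2 the difference was 1.00, and without SU5402 replicate 1 it was 2.63. In such fits the lone array of a group is assumed to vary like the other group. With all values under the Tag background raised to it, the difference was 1.16 and the unadjusted p 0.245 in limma. That setting ended the unadjusted call of crygs1, while cryba4 had an unadjusted p of 0.0312 there in limma. Without DMSO replicate 1 the crygs1 difference was 1.65.

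**Figure D2:**
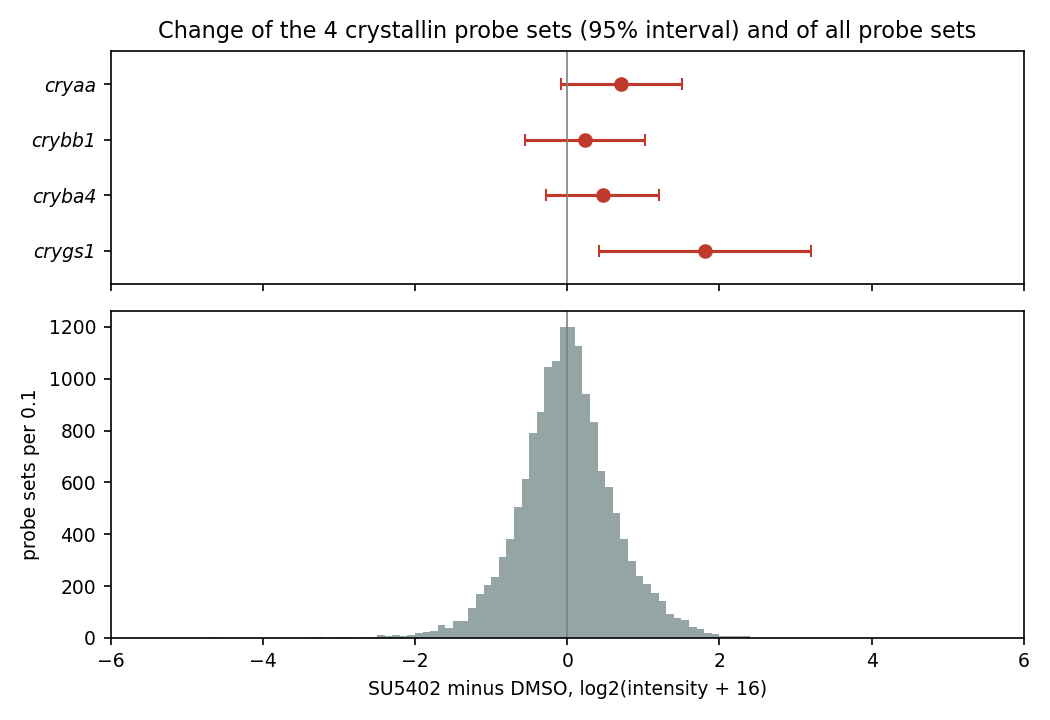
Upper panel, difference of each crystallin probe set (SU5402 minus DMSO, log2(intensity + 16)) with its 95% interval from limma; lower panel, number of probe sets per 0.1 log2 units among all 15502. The intervals of cryaa, crybb1 and cryba4 include 0, that of crygs1 runs from 0.42 to 3.21, and the interquartile range of all probe sets runs from -0.38 to 0.36.

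The 4 genes did not share 1 order of the arrays. SU5402 replicate 2 was the highest array for cryaa and crygs1, and SU5402 replicate 1 was the highest for crybb1 and cryba4. The lowest was DMSO replicate 2 for cryaa and crybb1 and DMSO replicate 1 for cryba4 and crygs1. Between arrays of the same replicate number the ratio of SU5402 to DMSO intensity for cryaa was 1.35 and 2.08, for crybb1 1.12 and 1.24, and for cryba4 1.52 and 1.26. No ratio is given for crygs1, whose DMSO values lay below the background. In each of the 4 genes the SU5402 array lay above the DMSO array of the same number for both numbers, beside 31.1% of all probe sets. The labels do not say that a number marks a pair. With the numbers crossed this did not hold for crybb1, whose SU5402 replicate 2 (16215) lay below DMSO replicate 1 (16766). A mean difference above 0 was found in 49.2% of all probe sets.

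Of the other crystallins with a probe set of 1 symbol, only crygmxl2 and crygm2c lay above the Tag background on all arrays, and both had a higher mean after SU5402. Of 54 listed genes, 7 were measured by a probe set of 1 symbol. Of these, 4 were higher and 3 lower, with a median of 0.07, beside 49.2% of all probe sets with a difference above 0. At an adjusted p under 0.05 in limma 0 of the 7 were called, beside 0.0% of all probe sets. At an unadjusted p under 0.05 in limma the count was also 0, beside 13.0%. The gamma crystallin gene crygmxl2 was at 27261 and 25651 in intensity on the SU5402 arrays, against 22781 and 19486 on the DMSO arrays, without overlap (0.33, SE 0.30, unadjusted p = 0.323 in limma). Gene crygm2c, of the gamma M family that is characteristic of fish lenses, was at 914 and 492 on the SU5402 arrays, against 741 and 534 on the DMSO arrays, and its groups overlapped (0.09). The values of crygm2f lay between 116 and 165 on all arrays, close to the Tag background (-0.15). The other 4, crygm4 (-0.80), crygm6 (-0.25), crygs2 (0.38) and the alpha B gene cryaba (0.07), were below the Tag background on all 4 arrays, so their differences are not measured above background. A probe set annotated to both crygm4 and efemp2b was at 163 and 103 on the SU5402 arrays, against 101 and 120 on the DMSO arrays. It lay near the background, and its groups overlapped (0.22).

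A further pair of bright probe sets is annotated to several crygm2d genes, near-identical gamma M crystallins whose transcripts they cannot separate. The one with 11 crygm2d symbols was at 45723 and 40246 in intensity on the SU5402 arrays, against 40452 and 41426 on the DMSO arrays (0.07, 95% interval -0.67 to 0.81). The highest intensity on any array was 48402, and whether such bright spots were saturated cannot be read from these values. The one with 7 symbols was at 15707 and 12530 on the SU5402 arrays, against 15059 and 12275 on the DMSO arrays (0.05, 95% interval -0.75 to 0.84). In both, the groups overlapped.

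Among genes of lens fibre structure, 4 of 20 were measured, 2 higher and 2 lower, with a median of 0.01. At an unadjusted p under 0.05 in limma 0 of the 4 were called, beside 13.0% of all probe sets. The beaded filament gene bfsp2, whose product is a cytoskeletal protein of fibre cells, was at 6222 and 9627 on the SU5402 arrays, against 6355 and 4119 on the DMSO arrays. SU5402 replicate 1 lay just below DMSO replicate 1, so the groups overlapped (0.60, SE 0.39, unadjusted p = 0.181 in limma). The gap junction genes gja3 (-0.91) and gja8b (-0.11) and the RNA granule gene tdrd7a (0.13) were below the Tag background on all 4 arrays.

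Taking the crystallin probe sets with the crygm2d pair and the fibre genes, 8 of 17 lay above the Tag background on all 4 arrays. Their differences ran from 0.05 to 0.71 with a median of 0.28. All 8 were above 0, beside 49.2% of all 15502 probe sets. Among the 8 are 3 of the members, and the crygm2d pair shares several symbols. Each of the 8 lay above the mean of the DMSO arrays on SU5402 replicate 1. On SU5402 replicate 2, crygm2c (-0.35) and the crygm2d probe sets with 7 symbols (-0.12) and 11 (-0.02) lay below that mean, and the rest above it. At an unadjusted p under 0.05 in limma 0 of the 8 were called, beside 13.0% of all probe sets. The lens probe sets left out lay on both sides of 0, from gja3 (-0.91) to crygs1 (1.81). In 3 of the 8, cryaa, cryba4 and crygmxl2, the groups did not overlap, beside 22.8% of the 7409 probe sets that lay above the Tag background on all arrays. This selection was made after the values were seen.

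**Figure D3:**
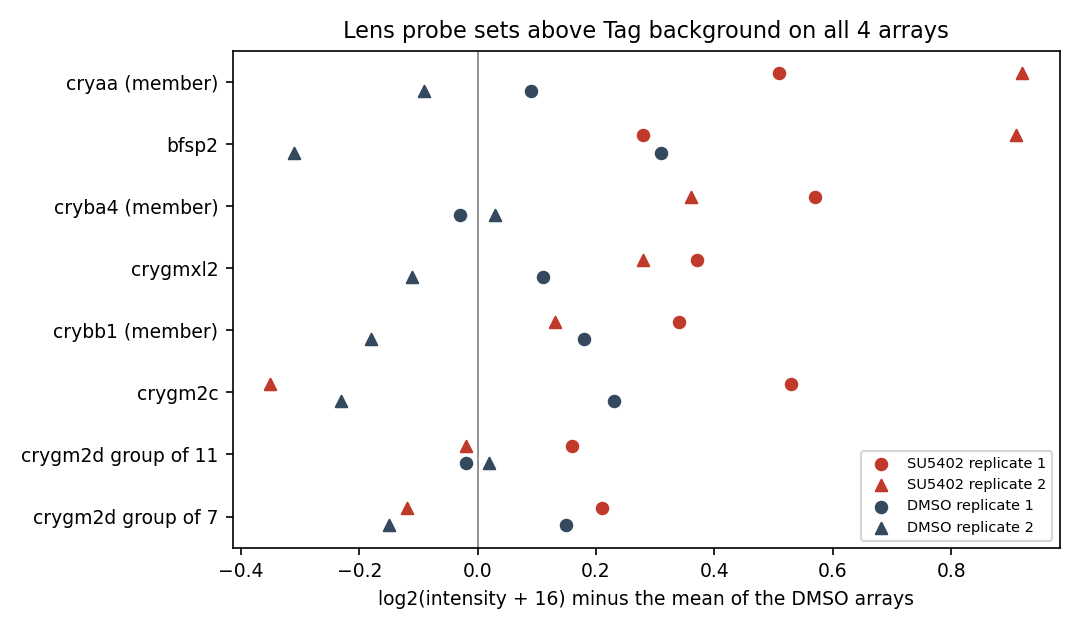
Log2(intensity + 16) on each array minus the mean of the DMSO arrays for the 8 lens probe sets above the Tag background on all 4 arrays, ordered by mean difference. The SU5402 arrays lie to the right of both DMSO arrays for cryaa, cryba4 and crygmxl2, and the groups overlap in the other 5.

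Of 26 listed transcription factor genes that act in the lens, 18 were measured. Many of these also act in brain and retina. Among the listed genes that were not measured were foxe3, pitx3, hsf4, maf and mafa. After SU5402, 17 were higher and 1 lower, with a median of 0.53, beside 49.2% of all probe sets with a difference above 0. Gene sox1a was counted as higher at 0.02, but its other probe sets were at -0.41 and -0.12. The lower gene, meis1a (-0.91), had another probe set at 0.36. At an unadjusted p under 0.05 in limma, 2 of the 18 were called, both higher. Beside them stand 13.0% of all probe sets in either direction and 6.74% as higher. The 2 were the eye and forebrain homeobox gene six3a (0.91, SE 0.30) and the homeobox gene meis2a (1.15, SE 0.37). Gene six3a had 1407 and 1452 in intensity on the SU5402 arrays, against 823 and 690 on the DMSO arrays. Next by p were the SRY-box gene sox11a (0.92, unadjusted p = 0.0751 in limma) and mab21l2, needed for eye growth (1.12, unadjusted p = 0.0937 in limma). The paired box gene pax6a, of the Pax6 family known for lens and retina formation, was at 1733 and 897 on the SU5402 arrays, against 825 and 915 on the DMSO arrays, and overlapped. Relative to each gene's mean over the arrays, the median of this list was 0.46 and -0.12 on SU5402 replicates 1 and 2, against -0.26 and -0.30 on DMSO replicates 1 and 2. It was therefore high on 1 SU5402 array, and without that array, SU5402 replicate 1, the median difference was 0.13. Relative to their own means, the 4 crystallin genes had medians of 0.19 and 0.34 on SU5402 replicates 1 and 2, against -0.26 and -0.37 on DMSO replicates 1 and 2.

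Markers of tissues near the lens and the heart also differed between arrays. Of 47 listed retina and photoreceptor genes, 31 were measured, 18 of them below the Tag background on all arrays; 21 were higher, with a median of 0.12, and their summed intensity was 8363 and 4231 (SU5402) and 4913 and 4776 (DMSO). At an unadjusted p under 0.05 in limma, 2 of the 31 retina genes were called, prph2b (1.20) and rbp3 (0.87), beside 13.0% of all probe sets. Both were below the Tag background on all arrays, and other probe sets of prph2b were at -0.79 and -0.95. Next by p were opn1sw2 (-0.55) and pou4f2 (0.63), also below it. Of 22 neuron and glia genes, 21 were higher, with a median of 1.07 and summed intensities of 85650 and 53495 (SU5402) and 40514 and 32660 (DMSO). At an unadjusted p under 0.05 in limma, 12 were higher and 0 lower, beside 6.74% and 6.21% of all probe sets. Lowest by p were snap25a (1.82), elavl4 (1.67), syt11a (1.60) and map1aa (1.37). The summed neuronal intensity was thus higher on both SU5402 arrays than on both DMSO arrays. Of 22 epidermis genes, 18 were lower, with a median of -0.52 and summed intensities of 35769 and 104244 (SU5402) and 82231 and 90023 (DMSO). That direction rested on SU5402 replicate 1, without which the median was 0.14. At that threshold 1 epidermis gene was higher and 4 were lower. Lowest by p were anxa1b (-3.38), krt1-19d, krt15 (-1.39) and krt17 (-1.66). On the SU5402 arrays krt1-19d lay below the Tag background, at least 1.36-fold lower than in DMSO, with another probe set at 0.65, and krt15 lay near it (130 and 151). Of the heart muscle genes, 14 were higher, with a median of 1.18 and summed intensities of 52805 and 44093 (SU5402) and 27475 and 18983 (DMSO). Relative to each gene's mean, the heart muscle median was 0.77 and 0.44 on SU5402 replicates 1 and 2. On DMSO replicates 1 and 2 it was -0.19 and -0.80, so the DMSO arrays also differed in these genes. The median difference was 0.82 without SU5402 replicate 1 and 0.89 without DMSO replicate 2. At that threshold 11 were higher and 1 lower, and lowest by p were gata5 (1.52), ttn.2 (1.84), tpm4a (-1.15) and actc1a (1.25). None of these lists held a value of 0, the lowest intensity on any array being 0.22, and 0 of their genes passed limma over all probe sets. The part of this tissue mix in the crystallin values was not tested.

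**Figure D4:**
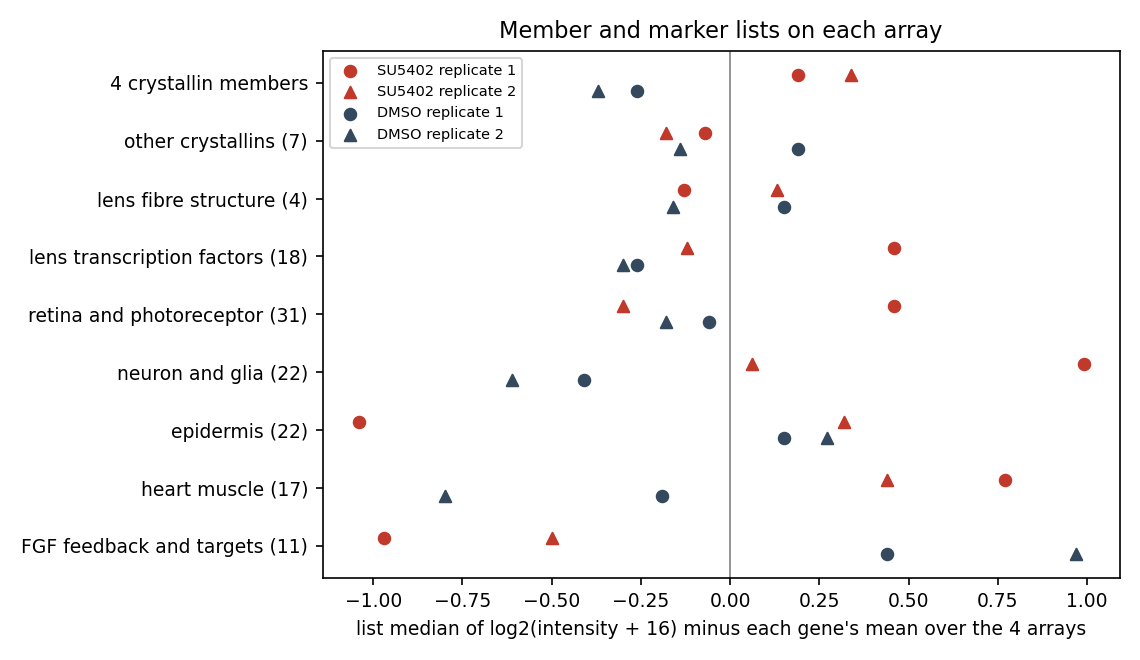
Median over each list of log2(intensity + 16) minus each gene's mean over the 4 arrays, per array, with the number of measured genes in brackets. The neuron and lens transcription factor lists are highest on SU5402 replicate 1 (0.99 and 0.46) and the epidermis list is lowest there (-1.04), while the 4 crystallin members are at 0.19 and 0.34 on SU5402 replicates 1 and 2, against -0.26 and -0.37 on DMSO replicates 1 and 2.

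The probe sets most like each crystallin were found by the root mean square difference between their mean-centred log2 values over the 4 arrays. Candidates were 6393 probe sets of 1 symbol with a mean above the Tag background, the members left out. These matches are descriptions over 4 arrays. For cryaa the nearest were pfkfb3 (0.039 log2 units), sdk2b, clk2a, papola and pank2 (0.057). For crybb1 they were csnk2a1 (0.015), ubqln4, bsg, ttc7b and ahcyl2b, and for cryba4 ankrd12 (0.022), ppm1db, bola1, ric3b and rnf130. Gene crygs1 had no match as close, but the measure is not scaled to the size of a profile. Profiles that vary more tend to lie farther from others, and crygs1 varied most of the 4, with DMSO values below the background. Its nearest were the titin gene ttn.2 (0.21), the secreted chaperone gene clu (0.22), mknk2b (0.29), the cell death gene bbc3 (0.29) and wu:fj05g07 (0.33). For the average of the 4 profiles they were lamp1a (0.054), tmbim4, ca5a, tmcc1b, ogdha, foxj3, pfkfb3, znf292b, clk2a and stard3 (0.080). No other crystallin or fibre gene was among these 30 entries, but few were candidates. The crygm2d pair, with several symbols, and the crystallin and fibre genes with a mean below the background could not appear.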

How the data were processed

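Total RNA was biotin-labelled, per the labels, and hybridised to Affymetrix Zebrafish arrays. The authors deposited probe set intensities on a linear scale; how probes were summarised and scaled, and with which software, is not given in the sources used here. Every array had a mean of 500.1 once the extreme 2% on either side were trimmed, so the deposited arrays share a scaled mean. All 4 columns belong to the labelled samples. Detection calls were not used here, and arrays have no read depth.

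Intensities were taken to log2(value + 16) and fitted with limma 3.58.1 under R 4.3.3 on treatment alone, with no filter, two-sided tests and Benjamini-Hochberg adjustment over 15502 probe sets; 115 control probe sets were left out. The fit was also run on simulated data with independent noise for each probe set. Such data could not show whether p-values hold where many probe sets shift together on the same array. Of 10795 probe sets with 1 symbol, 10711 were matched to a current RefSeq gene; 135 had several symbols and 4572 none. A listed gene was represented by its brightest probe set.

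Named were all members, all measured other crystallins and fibre genes, up to 4 genes of each remaining list by lowest p, and the nearest profiles (5 per member, 10 for their average). Gene pax6a was named after its values were seen, and foxe3, pitx3, hsf4, maf and mafa because they were not measured. The members and lists were chosen with earlier results of these data known. For "at least" folds, the dim group was set to the Tag background, given in the report. Such folds describe the measured means and do not include the spread between arrays. Same-numbered arrays deviated together at r = 0.276 across probe sets, but the labels do not say that a number marks a shared clutch, so the samples were not treated as pairs. Alternatives were a replicate block, pseudocounts of 1 and 64, leaving out the dimmest 25% of probe sets, quantile normalisation, median centring, a variance trend, a floor at the Tag background and each array left out.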

Additional observations from a re-analysis of the deposited data

How the results depend on the processing

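The differences of cryaa, crybb1, cryba4 and crygs1 stayed above 0, and 0 of the 4 passed the adjusted threshold in limma, in all 12 alternatives. Leaving out 1 array at a time gave 0.51 to 0.92 for cryaa, 0.06 to 0.42 for crybb1, 0.36 to 0.57 for cryba4, 1.00 to 2.63 for crygs1 and 0.54 to 0.64 for their median. With the replicate number as a block the differences were the same by construction (median 0.59), the unadjusted p of crygs1 was 0.00548 and its adjusted p 0.176 in limma, and the block changed no call of the 4. Over the alternatives the adjusted p of crygs1 ran from 0.176 to 0.96 and that of cryaa from 0.295 to 0.935. At an unadjusted p under 0.05 in limma, 2 of the 4 passed with a pseudocount of 64 (cryaa and crygs1) and without SU5402 replicate 1 (the same pair), cryba4 alone with the floor at the Tag background, and 0 without DMSO replicate 1. Over all probe sets, 21 passed the adjusted threshold with the floor, 14 of them at or below it on every array of 1 group, and 0 to 3 with 1 array left out (3 without SU5402 replicate 2); 951 to 3011 had an unadjusted p under 0.05 there. The median of the other crystallins ran from -0.30 to 0.04 with 1 array left out, and was negative without SU5402 replicate 1 (-0.30), DMSO replicate 2 (-0.14) and SU5402 replicate 2 (-0.18). The fibre genes' median was 0.24 without the dimmest 25% of probe sets, which removed dim members, and -0.15 to 0.16 with 1 array left out. The lens transcription factors' median ran from 0.13 to 0.77. Without SU5402 replicate 1 the medians of epidermis, retina and neuron genes were 0.14, -0.16 and 0.61, and without SU5402 replicate 2 they were -1.21, 0.49 and 1.5; with the floor the heart muscle median was 0.48. Signal over background limits crygs1 in DMSO and 7 of the other 11 lens genes on all arrays.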

Other observations

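A short list of genes that carry a crystallin name but are expressed outside the lens was chosen after the values were seen, and 4 were measured. Other such names were not searched. All 4 had mean differences below 0, while 49.2% of all probe sets had one above 0. Of these genes, 0 had an unadjusted p under 0.05 in limma, beside 13.0% of all probe sets. The gulonate dehydrogenase gene cryl1 had intensities of 502 and 423 on the SU5402 arrays, against 555 and 453 on the DMSO arrays (-0.12, log2), and its groups overlapped. The crystallin domain genes crybg1a (-0.14) and crybg1b (-0.44) overlapped too. For crybg1a, SU5402 replicate 1 (180) lay below both DMSO arrays (333 and 406) and SU5402 replicate 2 (598) above both. Gene crybg1b lay near the Tag background, at 76.8 and 144 on the SU5402 arrays, against 186 and 120 on the DMSO arrays. The thyroid hormone binding protein gene crym (-0.23) was below the Tag background on all arrays. It was at 73.6 and 68.4 on the SU5402 arrays, against 99.9 and 74.3 on the DMSO arrays. Its groups did not overlap, beside 21.8% of all probe sets that were lower without overlap. Whether these differences differ from those of the lens crystallins was not tested.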
